A study of Mus musculus with 6 samples.

Results

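The genes described here are 34 genes of cholesterol and fatty acid synthesis and their control, out of 45777 genes in the deposited tables. They were listed by name and role, with earlier results of these data known. They comprise 18 enzymes that build sterols from acetyl-CoA, 6 genes around the SREBP transcription factors (the factors, their escort and anchor proteins, and the sterol carrier *Stard4*), 5 genes of sterol efflux and of the LXR nuclear receptors, and 5 enzymes of fatty acid synthesis. Bulk RNA sequencing was performed on CD4+ T cells of the spleen of female C57BL/6 mice, an inbred strain, aged 7 weeks and untreated as far as the sources say, separated by surface Lrig1 into CD4+Lrig1+ and CD4+Lrig1- T cells. Lrig1 is a membrane protein that the study examined as a marker of suppressive T cells. The labels list 3 samples per group. Used here were 2 libraries per group, 1 of each group in each of 2 tables (called set 1 and set 2), and nothing in the labels says whether a set shares animals or how many animals gave each library, so a p-value measures the spread between these libraries only. All 34 genes passed the filter on low counts.

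Cells make cholesterol from acetyl-CoA by way of mevalonate, isoprenoid diphosphates, squalene and lanosterol. When the membranes of the endoplasmic reticulum are rich in sterol, Insig proteins hold the SREBP precursors and their escort Scap there, and when sterol is scarce the SREBP proteins are cleaved and switch on the synthesis genes. Oxidised sterols act the opposite way through the LXR receptors, which switch on the export pumps Abca1 and Abcg1 and the ubiquitin ligase Mylip. Activated T cells are known to raise sterol and fatty acid synthesis to build membranes. These points are background and not results of these libraries.

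Expression is given as TMM-normalized CPM, which are estimated counts scaled to 1000000 per library with edgeR's TMM factors, and a log2 ratio is CD4+Lrig1+ over CD4+Lrig1- throughout. The libraries held from 44865070 to 59977951 estimated counts. Log2 CPM correlated over genes (not independent replicates) at 0.96 and 0.959 between the groups within a set and at 0.908 between the sets within a group. *Lrig1* itself had 221 against 75.4 CPM in set 1 and 129 against 36.7 in set 2, and all 8 regulatory T cell markers, among them *Foxp3*, were in both sets higher in CD4+Lrig1+ T cells. The 8 T cell markers were present in all 4 libraries and summed to 4396 against 4164 CPM in set 1 and 6856 against 6672 in set 2. Markers of other cells were also present. The 8 B cell markers summed to 86.0 against 66.0 CPM in set 1 and 349 against 673 in set 2, the 11 macrophage and monocyte markers to 55.8 against 31.5 CPM in set 1 and 307 against 199.9 in set 2, the 6 dendritic cell markers to 14.1 against 57.0 CPM in set 1 and 12.4 against 55.1 in set 2, and the 6 CD8 T and NK markers to 46.8 against 63.7 CPM in set 1 and 113 against 181 in set 2. Of the 8 erythroid markers 1 was not found by its symbol and the rest summed to 9.46 against 9.38 CPM in set 1 and 85.2 against 96.8 in set 2. Proliferation genes differed as well, since 14 of 15 cell cycle markers were in both sets higher in CD4+Lrig1+ T cells, summing to 404 against 277 CPM in set 1 and 464 against 404 in set 2. In bulk samples such as these, fewer cells of a type and less RNA per cell cannot be told apart.

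Most sterol synthesis genes had modestly lower values in CD4+Lrig1+ T cells, a difference that the planned test did not call, whereas the efflux and fatty acid genes showed no shared direction. Of the 18 sterol synthesis enzymes, 12 were in both sets lower in CD4+Lrig1+ T cells, 3 were higher in both and 3 differed in direction. Over all genes tested, 41.3% were lower and 36.5% were higher in both sets. The median log2 fold change of the 18 enzymes was -0.21 over the 4 libraries, -0.15 in set 1 and -0.29 in set 2, where the median of all 16123 genes tested was -0.04, 0.0052 and -0.06. Among the genes with the same direction in both sets, *Mylip* on the lower side and *Scd2* on the higher side had the largest differences.

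The test across all genes did not call these differences. EdgeR's quasi-likelihood test on the 4 libraries, with 2 residual degrees of freedom, called 0 of the 34 genes, and 0% of all genes tested, at a Benjamini-Hochberg adjusted p under 0.05. At an unadjusted p under 0.05 it had 0 of the 34 and, of all genes, 674 higher and 227 lower. Without the table term, DESeq2's Wald test called 0 of the 34 against 1.63% of all genes higher and 0.31% lower. The exact test of edgeR likewise had 0 of the 34, against 1.22% of all genes higher and 0.105% lower. The lowest adjusted p among the 34 was 0.917, for *Mylip*, and the others were above 0.99 in this quasi-likelihood test. For 1 gene, the smallest p that an exact permutation of 2 libraries against 2 allows is 0.333. A model with a term for the table that holds each library (called the table block here) takes out level differences between the sets. It has 1 residual degree of freedom. As each set holds 1 library per group, the spread that is left is the disagreement of the group ratio between the 2 sets, which edgeR moderates across all genes. With the table block 9 of the 34 genes were called lower (26.5%, against 12.8% of all genes tested) and 2 were called higher (5.88%, against 14.6%). With the same term DESeq2's Wald test called 9 of the 34 lower (26.5%, against 12.2% of all genes) and 2 higher (5.88%, against 11.5%). Limma on log2(FPKM + 1) with that term called 3 lower (8.82%, against 6.3% of all genes), namely *Hmgcs1*, *Idi1* and *Mylip*, and 2 higher (5.88%, against 11.9%). Of the 11 calls of the quasi-likelihood test with the table block, DESeq2 made 10 and limma made 5. As the 34 genes were chosen with earlier results of these data known, their shares beside those of all genes are not independent support. In the next paragraphs "called" refers to the table block and the adjusted p is that of edgeR's quasi-likelihood test, with the log2 fold change given ± its standard error.

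**Figure D1:**
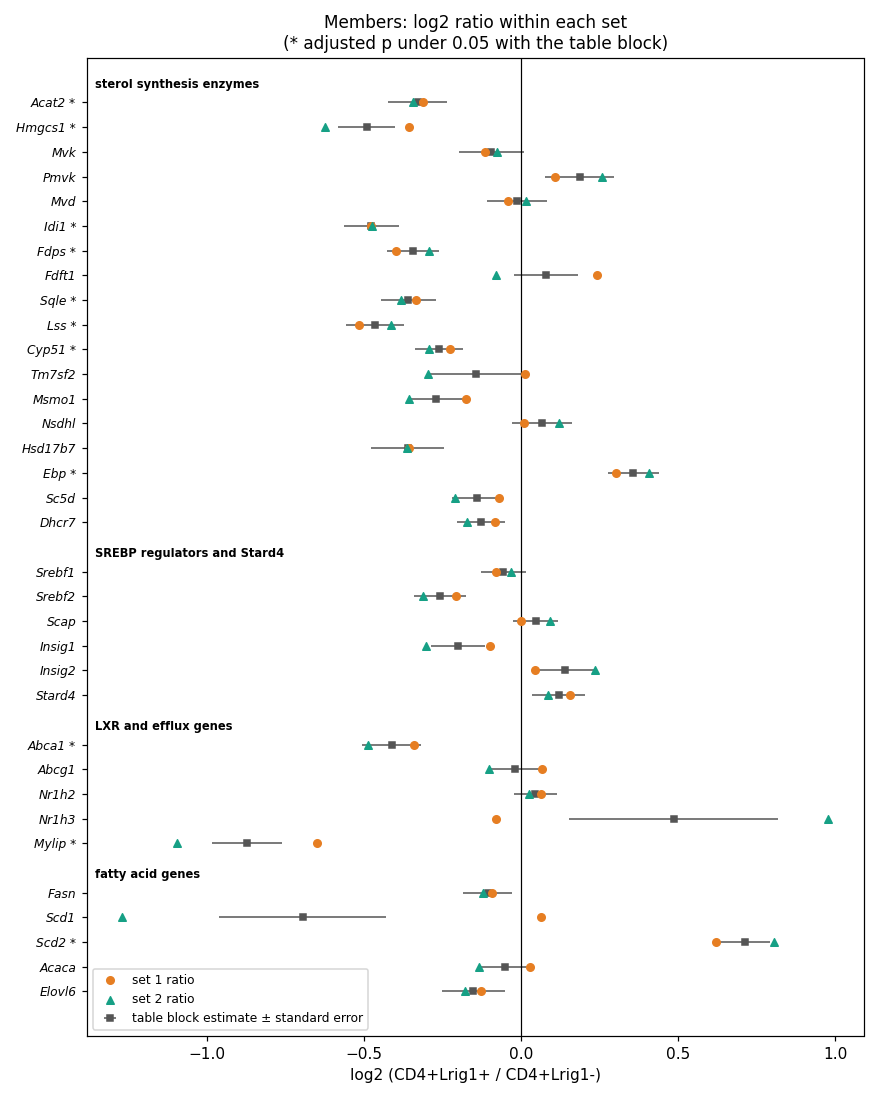
CD4+Lrig1+ over CD4+Lrig1- log2 ratio of the 34 genes, within set 1 (circles) and set 2 (triangles), with the table block estimate and its standard error (squares and bars). Genes with a star had an adjusted p under 0.05 in the table block, 9 to the left of 0 and 2 to the right, and *Scd1* and *Nr1h3* had the widest gap between the sets.

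The first enzymes of the pathway, from acetyl-CoA to the isoprenoid diphosphates, held 4 of the 7 sterol synthesis enzymes called lower. *Hmgcs1* (chromosome 13 from 119690351 to 119708260 of GRCm38) encodes the synthase that commits acetoacetyl-CoA to the mevalonate route. It had 52.2 CPM in the CD4+Lrig1+ and 66.9 in the CD4+Lrig1- library of set 1, and 45.1 and 69.6 in set 2. Both CD4+Lrig1+ libraries lay below both CD4+Lrig1- libraries, at 78.0% and 64.8% of their level in the same set. Its log2 fold change was -0.49 ± 0.09 (adjusted p = 0.00679, quasi-likelihood test). *Acat2* (chromosome 17 from 12943042 to 12960725), which joins 2 acetyl-CoA molecules in the cytosol, had 18.5 CPM in the CD4+Lrig1+ and 23.0 in the CD4+Lrig1- library of set 1, and 20.7 and 26.3 in set 2. These groups did not overlap either, and the log2 fold change was -0.33 ± 0.093 (adjusted p = 0.0361, quasi-likelihood test), a call that the DESeq2 Wald test with the table block did not make (adjusted p = 0.104). Non-overlapping groups with CD4+Lrig1+ lower held for 5 of the 34 genes (14.7%) and 11.8% of all genes tested.

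*Idi1* (chromosome 13 from 8885606 to 8892396), the isomerase that interconverts the isoprenoid diphosphates, had 17.4 CPM in the CD4+Lrig1+ and 24.2 in the CD4+Lrig1- library of set 1, and 33.0 and 45.9 in set 2. The ratio was nearly the same in the sets, at 71.7% and 71.9% of CD4+Lrig1-, while the level was higher in set 2 in both groups, so that the groups overlapped over the 4 libraries. Its log2 fold change was -0.48 ± 0.088 (adjusted p = 0.00703, quasi-likelihood test). *Fdps* (chromosome 3 from 89093588 to 89101967), which makes farnesyl diphosphate, had 28.3 CPM in the CD4+Lrig1+ and 37.4 in the CD4+Lrig1- library of set 1, and 56.0 and 68.7 in set 2 and was called lower at -0.34 ± 0.082 (adjusted p = 0.0194, quasi-likelihood test). The kinases and the decarboxylase between *Hmgcs1* and *Idi1* were not called. *Mvk*, mevalonate kinase, had 12.4 against 13.4 CPM in set 1 and 16.9 against 17.8 in set 2. The next kinase, *Pmvk*, had 12.4 against 11.5 CPM in set 1 and 17.2 against 14.4 in set 2, a ratio above 1 in both sets. *Mvd*, the decarboxylase, had 17.7 against 18.3 CPM in set 1 and 22.2 against 22.0 in set 2, and its sign changed with the scaling, from -0.01 on TMM-normalized counts to 0.03 on log2(FPKM + 1).

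Steps from squalene to lanosterol were lower as well, and the last steps to cholesterol were mixed. *Sqle* (chromosome 15 from 59315092 to 59331193), squalene epoxidase, had 21.9 CPM in the CD4+Lrig1+ and 27.6 in the CD4+Lrig1- library of set 1, and 32.9 and 42.9 in set 2. The CD4+Lrig1+ library was the lower in each set, and the log2 fold change was -0.36 ± 0.087 (adjusted p = 0.0213, quasi-likelihood test). *Lss* (chromosome 10 from 76531565 to 76557139), which closes the sterol rings to give lanosterol, had 25.8 CPM in the CD4+Lrig1+ and 36.9 in the CD4+Lrig1- library of set 1, and 17.2 and 22.9 in set 2. It was called lower at -0.47 ± 0.092 (adjusted p = 0.00945, quasi-likelihood test), and it was one of 3 enzymes whose level was lower in set 2 than in set 1, against 15 that were higher. *Cyp51* (chromosome 5 from 4080674 to 4104697), the lanosterol demethylase, had 43.4 CPM in the CD4+Lrig1+ and 50.8 in the CD4+Lrig1- library of set 1, and 58.3 and 71.5 in set 2, with a log2 fold change of -0.26 ± 0.076 (adjusted p = 0.0414, quasi-likelihood test). *Fdft1*, squalene synthase, which stands just before *Sqle* in the pathway, had 35.4 against 29.9 CPM in set 1 and 50.1 against 53.0 in set 2, opposite in direction between the sets. This split depended on the scaling. In TPM, which are scaled by transcript length, it had 24.2 against 16.2 in set 1 and 22.9 against 21.1 in set 2. Its log2 fold change was 0.04 on TMM-normalized counts and 0.32 on log2(FPKM + 1).

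Among the later enzymes *Msmo1*, which removes methyl groups at carbon 4, had 22.9 against 25.9 CPM in set 1 and 45.7 against 58.5 in set 2 and missed the threshold (adjusted p = 0.0635, quasi-likelihood test). *Hsd17b7*, a reductase of the same demethylation, had 9.46 against 12.1 CPM in set 1 and 9.98 against 12.8 in set 2, so both CD4+Lrig1+ libraries lay below both CD4+Lrig1- libraries, and it also missed it (adjusted p = 0.0576, quasi-likelihood test). *Sc5d*, the sterol desaturase, and *Dhcr7*, which completes cholesterol, had ratios of -0.071 in set 1 and -0.21 in set 2 and of -0.082 in set 1 and -0.17 in set 2 on the log2 scale, neither called. *Tm7sf2*, a sterol reductase, had 8.15 against 8.08 CPM in set 1 and 6.29 against 7.74 in set 2, and *Nsdhl*, the dehydrogenase of the demethylation, had 15.3 against 15.2 CPM in set 1 and 29.7 against 27.3 in set 2. Both lay within the spread between the libraries.

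*Ebp* (chromosome X from 8185329 to 8193512), the sterol isomerase whose product *Sc5d* uses, went the other way. It had 30.2 CPM in the CD4+Lrig1+ and 24.5 in the CD4+Lrig1- library of set 1, and 78.3 and 59.0 in set 2, which was 123% and 133% of the CD4+Lrig1- level in the 2 sets. The log2 fold change was 0.36 ± 0.082 (adjusted p = 0.0172, quasi-likelihood test). It was the only one of the 18 enzymes called higher. The groups overlapped over the 4 libraries, since the set 2 libraries held more of this transcript than the set 1 libraries in both groups (a mean log2 difference of 1.32).

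The letters before the start of some of these genes are shown here, because the sterol response acts through DNA sites near the start. Windows of 250 bases before the annotated start were read from RefSeq on GRCm38.p6, and 27 of the 34 genes had one. The windows were searched on both strands for TCACNCCAC (a form of the sterol response element to which SREBP proteins bind), for the CCAAT box, for the GC box GGGCGG, and for 2 copies of AGGTCA 4 bases apart (the LXR repeat), and no 2 different motifs overlapped in a window of these genes. TCACNCCAC was in the window of 1 of the 27 genes, *Hmgcs1*, and in 1.22% of all 27025 genes with a window. CCAAT was in 20 of the 27 genes (74.1%) and in 37.5% of all genes. Of the 15 sterol synthesis enzymes with a window 14 held it, *Acat2* being the exception. GGGCGG was in 21 of the 27 (77.8%) and in 35.4% of all genes, and the LXR repeat was in 0 of the 27 and in 0.0148% of all. The windows below are those of the committed enzyme, *Idi1*, the enzyme that went the other way, and *Mylip*, each read 5′ to 3′ in the direction of the gene, with TCACNCCAC and CCAAT on either strand in capitals (ATTGG is CCAAT on the other strand).
Hmgcs1, chr13:119690101-119690350, plus strand: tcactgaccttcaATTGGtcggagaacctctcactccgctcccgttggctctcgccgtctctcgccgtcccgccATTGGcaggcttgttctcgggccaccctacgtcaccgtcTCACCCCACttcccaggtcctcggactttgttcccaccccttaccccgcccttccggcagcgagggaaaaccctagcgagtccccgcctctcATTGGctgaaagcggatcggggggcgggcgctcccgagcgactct
Idi1, chr13:8885356-8885605, plus strand: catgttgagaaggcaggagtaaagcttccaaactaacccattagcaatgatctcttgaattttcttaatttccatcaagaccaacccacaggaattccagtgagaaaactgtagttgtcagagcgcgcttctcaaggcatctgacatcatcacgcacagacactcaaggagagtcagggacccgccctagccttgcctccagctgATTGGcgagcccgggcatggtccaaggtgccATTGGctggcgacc
Ebp, chrX:8193513-8193762, minus strand: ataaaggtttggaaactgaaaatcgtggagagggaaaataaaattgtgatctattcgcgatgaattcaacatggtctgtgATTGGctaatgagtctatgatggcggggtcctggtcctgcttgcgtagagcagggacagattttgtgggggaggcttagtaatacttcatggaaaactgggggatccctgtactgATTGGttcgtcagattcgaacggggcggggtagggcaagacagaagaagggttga
Mylip, chr13:45389492-45389741, plus strand: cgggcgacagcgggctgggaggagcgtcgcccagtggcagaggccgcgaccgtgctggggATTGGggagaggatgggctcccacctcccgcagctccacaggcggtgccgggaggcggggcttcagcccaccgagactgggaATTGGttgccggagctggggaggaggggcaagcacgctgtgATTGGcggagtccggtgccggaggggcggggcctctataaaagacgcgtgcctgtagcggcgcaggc
In *Hmgcs1* the sterol response element letters began 137 bases before the start, between CCAAT boxes that began at 176 and 45. *Idi1* and *Ebp*, which differed in opposite directions, held 2 CCAAT boxes each. *Mylip* held 3. These are matches of letters, and binding was not measured.

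None of the regulators of the pathway was called, and *Srebf2* had the largest difference among them. *Srebf2*, which encodes the SREBP protein that acts mainly on sterol synthesis, had 320.3 CPM in the CD4+Lrig1+ and 370.0 in the CD4+Lrig1- library of set 1, and 271 and 337 in set 2. Both CD4+Lrig1+ libraries lay below both CD4+Lrig1- libraries, at 86.6% and 80.5% of the level in the same set. Its log2 fold change of -0.26 ± 0.083 was just outside the threshold in edgeR's quasi-likelihood test (adjusted p = 0.0551) and inside it in DESeq2's Wald test with the same term (adjusted p = 0.000291). *Srebf1*, whose products act more on fatty acid genes, had 133 against 141 CPM in set 1 and 103 against 106 in set 2. *Scap*, the escort, had 132 against 132 CPM in set 1 and 89.7 against 84.2 in set 2. *Insig1*, an anchor in the endoplasmic reticulum that is itself switched on by SREBP proteins, was the lower in each set at 43.2 against 46.2 CPM in set 1 and 49.5 against 61.0 in set 2, and *Insig2*, the other anchor, was the higher at 19.7 against 19.2 CPM in set 1 and 24.4 against 20.8 in set 2, neither of them called. *Stard4*, a carrier of cholesterol between membranes, had 41.1 against 36.9 CPM in set 1 and 39.7 against 37.5 in set 2, higher in both CD4+Lrig1+ libraries than in both CD4+Lrig1- libraries by a small margin. The same held for *Scd2*, so 2 of the 34 genes (5.88%) did not overlap in this direction, against 14.3% of all genes tested. Of the 6 genes 3 were lower and 3 were higher in both sets, and their median log2 fold change was -0.01, which turned to 0.05 on log2(FPKM + 1).

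Of the LXR and efflux genes, *Mylip* and *Abca1* were called lower. *Mylip* (chromosome 13 from 45389742 to 45411940), an LXR target whose ubiquitin ligase sends lipoprotein receptors to degradation, had 51.1 CPM in the CD4+Lrig1+ and 80.2 in the CD4+Lrig1- library of set 1, and 35.8 and 76.5 in set 2. Each CD4+Lrig1+ library lay below both CD4+Lrig1- libraries, at 63.7% and 46.8% of the level in the same set. Its log2 fold change of -0.87 ± 0.11 had an adjusted p of 0.00141 in the quasi-likelihood test, and DESeq2 and limma with the table block called it too. *Abca1* (chromosome 4 from 53030789 to 53159988), which exports cholesterol to lipid-poor carriers, had 34.4 CPM in the CD4+Lrig1+ and 43.6 in the CD4+Lrig1- library of set 1, and 14.7 and 20.7 in set 2. The CD4+Lrig1+ library was the lower in each set, but the set 1 libraries were above the set 2 libraries in both groups. The log2 fold change was -0.41 ± 0.093 (adjusted p = 0.0159, quasi-likelihood test), and limma on log2(FPKM + 1) with the table block did not call it (adjusted p = 0.169). *Abcg1*, the other pump, had 119.9 against 115 CPM in set 1 and 113 against 121 in set 2, a spread of a few percent with no shared direction. *Nr1h2*, which encodes the LXR receptor made in most tissues, had 122 against 117 CPM in set 1 and 79.3 against 77.9 in set 2.

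*Nr1h3*, which encodes the LXR receptor known from liver and macrophages, was the lowest of the 34 genes, with 76 to 247 estimated counts per library. It had 1.5 against 1.59 CPM in set 1 and 4.30 against 2.17 in set 2. It was higher in CD4+Lrig1+ T cells of set 2 only, and was not called (adjusted p = 0.332, quasi-likelihood test). The macrophage and monocyte markers were highest in the same library. Of the 11 markers 8 were in both sets higher in CD4+Lrig1+ T cells, with *C1qa*, a complement gene of tissue macrophages, at 3.81 against 0.564 CPM in set 1 and 33.8 against 8.79 in set 2. None of the 11 was at 0 in any library, and the part of these cells in the level of *Nr1h3* was not tested. Over the 5 LXR and efflux genes the median log2 fold change was -0.02, which turned to 0.03 on log2(FPKM + 1).

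The fatty acid enzymes had no shared direction, and the 2 stearoyl-CoA desaturases stood apart from the rest. *Scd2* (chromosome 19 from 44293676 to 44306864), which puts the first double bond into saturated fatty acids, had 155 CPM in the CD4+Lrig1+ and 101 in the CD4+Lrig1- library of set 1, and 189 and 108 in set 2. The CD4+Lrig1+ libraries both exceeded the CD4+Lrig1- libraries, at 154% and 175% of the level in the same set. Its log2 fold change was 0.71 ± 0.079 (adjusted p = 0.000740, quasi-likelihood test), and DESeq2 and limma with the table block called it too. *Scd1* (chromosome 19 from 44394450 to 44407709), its neighbour on the same chromosome with the same activity, had 9.10 CPM in the CD4+Lrig1+ and 8.71 in the CD4+Lrig1- library of set 1, and 45.2 and 109 in set 2. The log2 ratio was 0.062 in set 1 and -1.27 in set 2, and the set 2 libraries were above the set 1 libraries by a mean log2 difference of 2.98. It was not called (adjusted p = 0.0951, quasi-likelihood test). The order of the 4 libraries in *Scd1* was close to that in the summed B cell markers, which were lowest in set 1 and highest in the CD4+Lrig1- library of set 2. This order was not particular to B cell markers. The summed erythroid markers had it too, and the summed CD8 T and NK markers were likewise highest in the CD4+Lrig1- library of set 2. None of the 8 B cell markers was at 0 in any library, and the part of any of these cells in the level of *Scd1* was not tested. The 2 desaturases resemble each other in sequence, and how reads that match both were counted is not given in the sources used here.

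**Figure D2:**
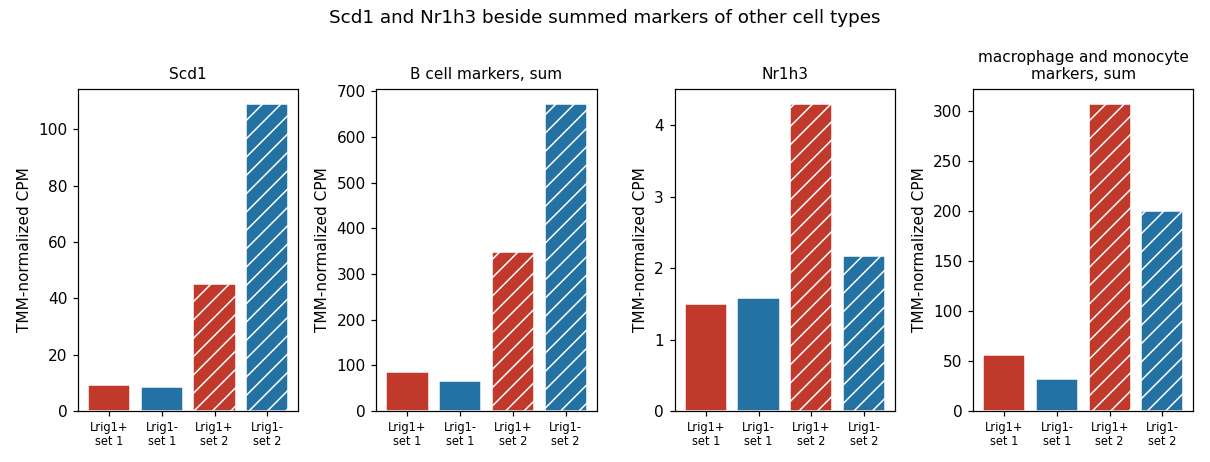
TMM-normalized CPM of *Scd1* and *Nr1h3* in each of the 4 libraries, beside the sum of the 8 B cell markers and of the 11 macrophage and monocyte markers (1 bar per library, plain for set 1 and hatched for set 2). *Scd1* and the B cell markers were highest in the CD4+Lrig1- library of set 2, and *Nr1h3* and the macrophage and monocyte markers in the CD4+Lrig1+ library of set 2.

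The enzymes that make and lengthen the fatty acid chain were not called. *Fasn*, fatty acid synthase, had 324 against 346 CPM in set 1 and 166 against 181 in set 2, and *Acaca*, the carboxylase that supplies malonyl-CoA, had 55.2 against 54.1 CPM in set 1 and 33.3 against 36.5 in set 2. *Elovl6*, which lengthens palmitate, had 19.7 against 21.6 CPM in set 1 and 12.1 against 13.7 in set 2. For these genes the difference between the sets was larger than that between the groups. The same was true of 26 of the 34 genes, as it was of 11651 of the 16123 genes tested.

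**Figure D3:**
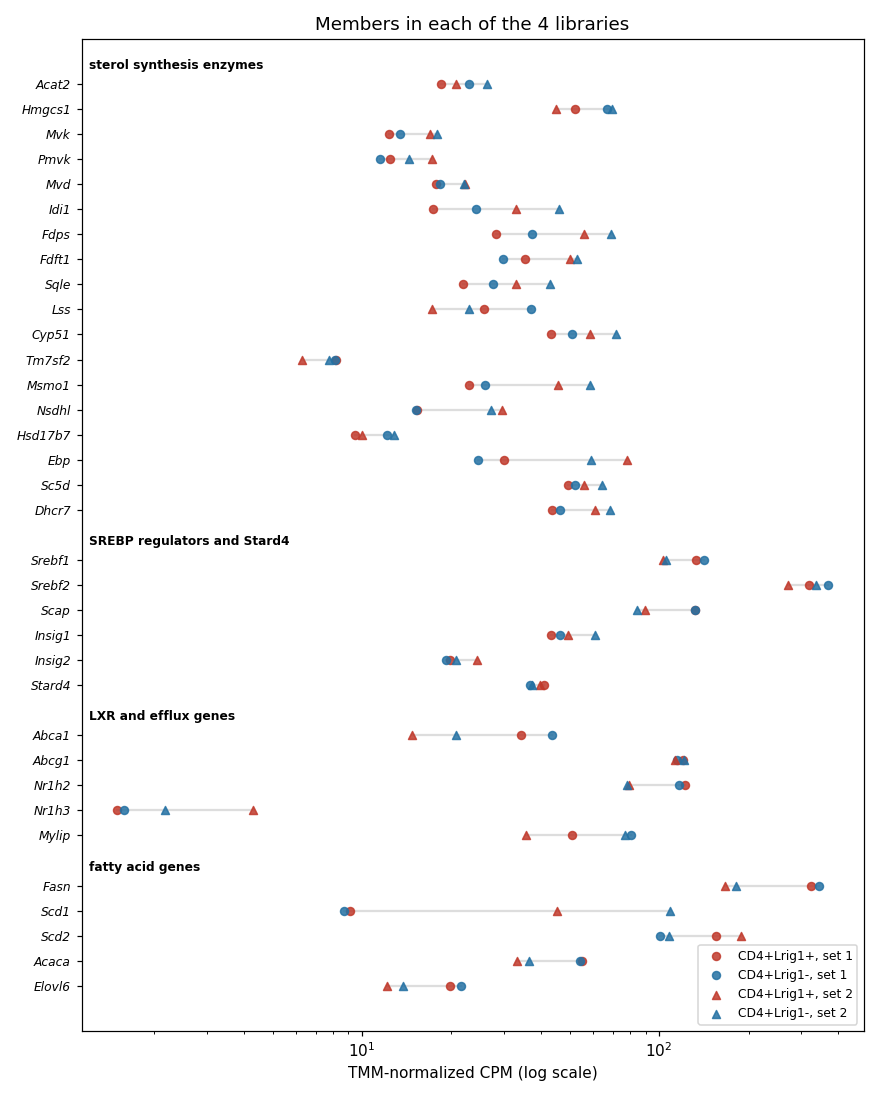
TMM-normalized CPM (log scale) of the 34 genes in the CD4+Lrig1+ (red) and CD4+Lrig1- (blue) libraries of set 1 (circles) and set 2 (triangles), 1 point per library. For *Hmgcs1*, *Mylip* and *Scd2* the colours separate, whereas for *Idi1*, *Ebp*, *Fasn* and *Abca1* the symbols of the sets separate first.

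Set side by side, the sterol synthesis enzymes lay below the efflux and fatty acid genes in both sets. The 18 enzymes summed to 465 CPM (CD4+Lrig1+) against 524 (CD4+Lrig1-) in set 1 and to 656 against 753 in set 2, which was 88.7% and 87.1% of CD4+Lrig1- T cells. The 10 efflux and fatty acid genes summed to 892 CPM (CD4+Lrig1+) against 888 (CD4+Lrig1-) in set 1 and to 692 against 747 in set 2, or 101% and 92.7%. Taken apart, the 5 fatty acid genes summed to 106% and 99.3% of CD4+Lrig1- T cells in set 1 and set 2. The 5 LXR and efflux genes summed to 92.2% and 82.7%, which in set 2 was below the enzymes. The median log2 fold change of the enzymes minus that of the 10 genes was -0.14 over the 4 libraries, -0.12 in set 1 and -0.16 in set 2. No test was made of this difference. The sums are weighted to a few abundant genes, and those of the fatty acid genes rest on *Fasn* and *Scd2*. In set 2 the order of the sums depends on *Scd2* (189 against 108 CPM). Without it the other efflux and fatty acid genes lie below the enzymes there, as a share of CD4+Lrig1- T cells. Without a single library the median of the enzymes ran from -0.40 (CD4+Lrig1+ of set 2 left out) to 0.09 (CD4+Lrig1- of set 2 left out), and leaving out CD4+Lrig1+ of set 1 also put it above 0, at 0.05. Such a fit carries no set term, and the higher level of 15 of the 18 enzymes in set 2 weighs in it.

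Levels of different genes were compared per length, as TPM (transcripts scaled by length to 1000000 per library). By the mean over the 4 libraries, *Srebf2* was the most abundant of the 34 genes, at 80.0 to 188 TPM, followed by *Nr1h2* at 54.1 to 144. Of the enzymes *Fdps* was highest, at 56.0 to 75.3 TPM. *Hsd17b7*, at 3.32 to 6.82, and *Nr1h3*, at 1.72 to 3.56 TPM, were the lowest. All 33 neighbouring pairs in this order had overlapping ranges over the 4 libraries, with the set 2 libraries often apart from those of set 1. Compared library by library, 4 of the 33 pairs kept 1 order in all 4 libraries, *Srebf2* above *Nr1h2* among them, and 29 changed order between libraries. *Scd2* was above *Scd1* in every library except the CD4+Lrig1- library of set 2, where it was at 28.0 against 31.8 TPM.

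The tables give estimated counts per transcript, which showed how unevenly reads had been assigned to the transcripts of a gene. Of the 34 genes 18 had 2 or more transcripts with at least 5% of the gene's counts, and in 14 of them the share of a transcript spanned over 20 percentage points among the 4 libraries. For *Acaca*, transcripts that start at 84177858 on chromosome 11 took 94.7% and 95.8% of the counts in set 1 and 2.62% and 1.62% in set 2, where the transcript that starts at 84195438 took 97.4% and 98.4%. This difference followed the set and not the group. For *Srebf1*, variant 1 took 55.4% (CD4+Lrig1+) and 78.9% (CD4+Lrig1-) of the counts in set 1, and 80.7% and 55.5% in set 2, so the order of the groups reversed between the sets. For *Hmgcs1*, variant X1 took 0.663% and 0.116% in the CD4+Lrig1+ libraries against 66.9% and 14.5% in the CD4+Lrig1- libraries, with the other variants sharing the rest. *Scap* variant X1 took 14.0% and 19.4% in the CD4+Lrig1+ libraries against 45.8% and 42.1% in the CD4+Lrig1- libraries. For *Abca1*, variant X3 took 85.1% in the CD4+Lrig1+ library of set 2 and 1.58% to 8.33% in the others. Shares of transcripts that overlap this closely are estimates from short reads, and no test was made of them.

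Some of the genes share their place in the genome with others. In the GENCODE annotation of GRCm38, *Cyp51* overlaps *Akap9*, *Fdft1* overlaps *Ctsb* and *Srebf1* overlaps *Rai1* on the opposite strand, *Tm7sf2* overlaps *Vps51* on the same strand, and *Hmgcs1*, *Lss* and *Elovl6* overlap antisense RNAs. The library kit keeps the strand, and whether the counting used it is not given in the sources used here, so reads in the shared stretches of these genes are uncertain.

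Other genes of these pathways came from lists chosen by role with earlier results of these data known, so they are not an independent check. Of 19 further genes of sterol synthesis and handling 17 were tested. In both sets 13 were lower (76.5%, against 41.3% of all genes tested) and 3 higher (17.6%, against 36.5%). With the table block 8 were called lower (47.1%, against 12.8%) and 1 higher (5.88%, against 14.6%), against 0 without it. *Lbr*, the sterol reductase of the nuclear envelope, was called lower with 233 against 307 CPM in set 1 and 278 against 429.9 in set 2 (adjusted p = 0.00605, quasi-likelihood test). *Ggps1*, which makes geranylgeranyl diphosphate, was called lower at -0.35 ± 0.082 (adjusted p = 0.0194, quasi-likelihood test). *Npc2* and *Lipa* were also called lower. *Npc2*, which carries cholesterol inside the lysosome, had 201 against 298 CPM in set 1 and 435 against 823 in set 2, and *Lipa*, the lysosomal esterase, had 84.9 against 111 CPM in set 1 and 153 against 245 in set 2.

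Their adjusted p in the quasi-likelihood test was 0.00258 for *Npc2* and 0.00485 for *Lipa*. The summed dendritic cell markers given above were lower alongside in both sets, as were the CD8 T and NK markers. The summed macrophage and monocyte markers went the other way in both sets, and the B cell markers differed in direction between the sets. The part of any of these cells in the levels of *Npc2* and *Lipa* was not tested. *Osbp*, a sterol exchanger, was called lower at -0.24 ± 0.07 (adjusted p = 0.0414, quasi-likelihood test). *Cyp27a1*, which oxidises the sterol side chain, was rare, with 1.21 against 5.33 CPM in set 1 and 0.801 against 1.30 in set 2 (adjusted p = 0.0331, and 0.0672 in DESeq2 and 0.167 in limma with the same term). *Soat2*, an esterifying enzyme of liver and intestine, was also rare and not called, with 3.40 against 6.04 CPM in set 1 and 1.03 against 1.54 in set 2 (adjusted p = 0.0673, quasi-likelihood test). *Soat1*, which esterifies cholesterol for storage, was the one called higher, with 53.5 against 47.5 CPM in set 1 and 49.6 against 35.1 in set 2 and a log2 fold change of 0.33 ± 0.10 (adjusted p = 0.0451, quasi-likelihood test), a call that neither DESeq2 nor limma made with the same term (adjusted p = 0.134 in each). The other genes with the largest values upward were not called. *Tmem97*, a sterol-regulated membrane protein, had 6.38 against 4.93 CPM in set 1 and 11.6 against 10.2 in set 2, and *Mbtps1*, a protease that cleaves SREBP precursors, had 202 against 196 CPM in set 1 and 156 against 149 in set 2. *Ch25h* and *Cyp7b1*, hydroxylases that make oxidised sterols, did not pass the filter on low counts, at 0.0418 CPM or less and 0.0741 CPM or less.

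Of 7 LXR partners and targets 6 were tested. In both sets 4 were lower (66.7%, against 41.3% of all genes tested) and 1 was higher (16.7%, against 36.5%). The table block called 2 lower (33.3%, against 12.8%) and 1 higher (16.7%, against 14.6%). *Rxra*, a partner of the LXR receptors, had 35.5 against 25.7 CPM in set 1 and 36.3 against 26.3 in set 2, with the same log2 ratio of 0.47 in each set (adjusted p = 0.00742, quasi-likelihood test). *Rxrb*, a related partner, had 87.2 against 98.2 CPM in set 1 and 82.3 against 94.9 in set 2 and was not called (adjusted p = 0.0815, quasi-likelihood test), and *Rxrg* was at 0 in all 4 libraries. *Lpcat3*, a phospholipid remodelling enzyme and LXR target, had 33.96 against 43.0 CPM in set 1 and 35.9 against 45.0 in set 2 (adjusted p = 0.0227, quasi-likelihood test). *Pltp*, a phospholipid transfer protein, had 1.63 against 3.20 CPM in set 1 and 1.98 against 8.70 in set 2 (adjusted p = 0.00870, quasi-likelihood test). It was of low abundance, and the dendritic cell markers, of which 5 of 6 were in both sets lower in CD4+Lrig1+ T cells, were lower alongside. None of the 6 was at 0 in any library. The summed CD8 T and NK markers were lower in both sets as well, and the macrophage and monocyte markers were higher. The part of any of these cells in the level of *Pltp* was not tested. *Abca7*, a lipid pump, had 265 against 308 CPM in set 1 and 61.3 against 71.7 in set 2, and *Abcg4*, a pump related to *Abcg1*, was under 0.4 CPM in every library. Neither was called.

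Of 23 further genes of fatty acid synthesis 20 were tested, with shares near those of all genes. In both sets 9 were lower (45%, against 41.3% of all genes tested) and 7 higher (35%, against 36.5%). The table block called 4 lower (20%, against 12.8%) and 3 higher (15%, against 14.6%). *Acss2*, which makes acetyl-CoA from acetate in the cytosol and nucleus, had 43.7 CPM in the CD4+Lrig1+ and 79.7 in the CD4+Lrig1- library of set 1, and 45.2 and 112 in set 2. Its log2 fold change of -1.09 ± 0.11 had an adjusted p of 0.000478 in the quasi-likelihood test. *Acly*, which makes acetyl-CoA from citrate, had 301 against 291 CPM in set 1 and 299 against 317 in set 2 and was not called, whereas *Slc25a1*, which brings citrate out of the mitochondrion, was called higher with 24.4 against 17.9 CPM in set 1 and 35.7 against 25.6 in set 2 (adjusted p = 0.00888, quasi-likelihood test). Also higher were *Hacd3*, a dehydratase of chain lengthening, at 0.49 ± 0.07 (adjusted p = 0.00239), and *Elovl1*, an elongase of very long chains, at 0.25 ± 0.072 (adjusted p = 0.0389, quasi-likelihood test), which DESeq2 with the same term did not call (adjusted p = 0.103). *Acsl3*, which activates fatty acids on lipid droplets, had 8.13 against 12.7 CPM in set 1 and 8.90 against 15.7 in set 2 and was called lower (adjusted p = 0.00459, quasi-likelihood test). The elongase *Elovl7* and the desaturase *Fads2* were called lower at -1.47 ± 0.25 (adjusted p = 0.00480) and -2.21 ± 0.50 (adjusted p = 0.0164, quasi-likelihood test), and both were rare, with at most 7.35 and 2.04 CPM in a library. *Me1*, *Mlxipl* and *Thrsp*, genes of fat-making in liver, did not pass the filter on low counts, at no more than 0.0769 CPM.

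**Figure D4:**
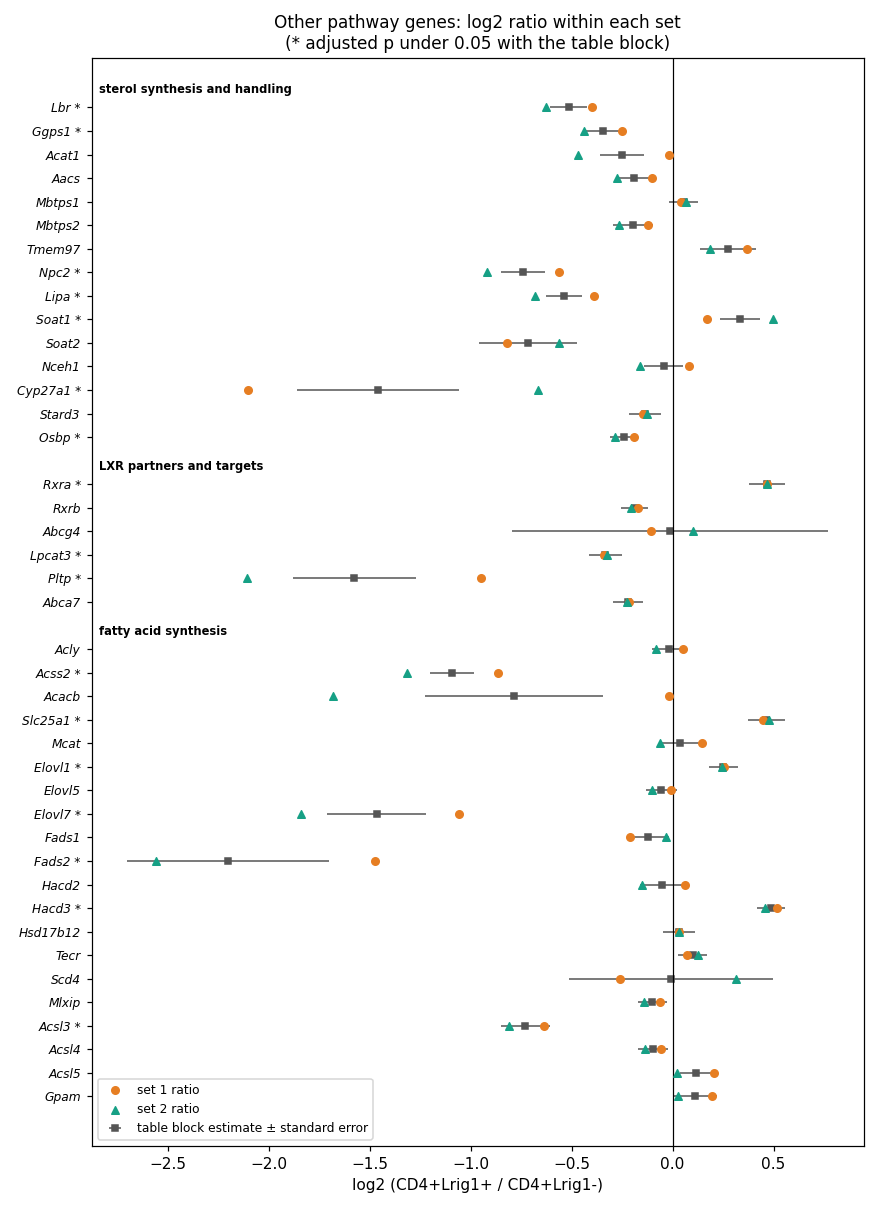
CD4+Lrig1+ over CD4+Lrig1- log2 ratio of 41 of the 43 other pathway genes that were tested, within set 1 (circles) and set 2 (triangles), with the table block estimate and its standard error (squares and bars). Stars mark the 17 genes shown that had an adjusted p under 0.05 in the table block, 12 lower and 5 higher, and *Acss2*, *Elovl7*, *Fads2* and *Pltp* lie far to the left in both sets.

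Over the 3 lists together 14 of 43 genes were called lower (32.6%) and 5 higher (11.6%) with the table block, to be read against the 12.8% and 14.6% of all genes given above. DESeq2 with the table block made 16 of these 19 calls and limma on log2(FPKM + 1) made 10. The median log2 fold change was -0.30 for the sterol list, -0.20 for the LXR list and -0.07 for the fatty acid list, where all genes tested had -0.04.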

How the data were processed

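Splenic CD4+ T cells were split by Lrig1, and their mRNA was sequenced as paired-end reads from libraries of a stranded kit. By the submitters' processing notes the authors trimmed reads with Trimmomatic 0.38, mapped them with HISAT2 2.1.0 and assembled them with StringTie 2.1.3b, and the notes also name Bowtie2 2.3.4.1 and the builds GRCm38 and mm10. The estimated counts deposited by the authors are per transcript, by StringTie, and are not normalized. The FPKM values deposited by the authors are scaled by transcript length and library size, and the TPM values deposited by the authors by length and then to 1000000 per library.

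Of the 6 samples the labels list, 4 libraries in 2 tables could be given a group from their column names. The 6 per-sample columns of 1 more table were not used here, as their names give no Lrig1 group. Gene spans of all 34 genes were identical to those of RefSeq on GRCm38.p6.

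Counts were summed per gene symbol and rounded to whole numbers. In R 4.3.3 the 16123 genes kept by filterByExpr of edgeR 4.0.16 were scaled by TMM and compared with its quasi-likelihood test, with Benjamini-Hochberg adjustment over all of them. The prior count of the ratios in a set was 2. The planned design had no term for the table, and the table block was an alternative. Other alternatives were DESeq2 1.42.0 (size factors and Wald test), edgeR's exact test, other filters on low counts, limma 3.58.1 with a pseudocount of 1 or 0.1 on log2 FPKM, each set alone, and each library left out. The procedure was tested on simulated counts with known changes. These were drawn with the spread of each gene as fitted with the table block, so they cannot show whether the calls of that fit are reliable. Motifs were searched in Python 3.11.15 in the 250 bases before each start. All members are named, and of the other pathway genes those called with the table block and up to 3 with the largest and 3 with the smallest log2 fold change on each list. A few genes on the lists enter the counts and are not reported here by name. The members and lists were chosen with earlier results of these data known. Sequences are from RefSeq on GRCm38.p6 and overlaps from GENCODE on GRCm38.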

Additional observations from a re-analysis of the deposited data

How the results depend on the processing

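The calls depended on the term for the table. Without it 0 of the 34 genes were called under DESeq2's size factors, no filter, at least 10 counts in every library, both limma fits on log2 FPKM, edgeR's exact test, DESeq2's Wald test and each fit without a library. With the table block 2 were called higher and 9 lower by edgeR (14.6% and 12.8% of all genes), 2 and 9 by DESeq2 (11.5% and 12.2% of all genes), and 2 and 3 by limma on log2(FPKM + 1) (11.9% and 6.3% of all genes). At an adjusted p under 0.1 edgeR with that term had 2 higher and 13 lower. The share of all genes at that looser threshold was not counted, so the rise cannot be read as a result about the members. The other pathway genes called went from 0 and 0 to 5 higher and 14 lower by edgeR, 3 and 14 by DESeq2 and 3 and 7 by limma with the table block. The common biological coefficient of variation was 0.643 without the term and 0.0960 with it. By replicate number no paired analysis was possible because the columns carry none, and the table block compares the libraries within a table instead. Of the 34 directions 27 held in every setting other than those without a library. Exceptions were 0.00 for *Mvd* with at least 10 counts in every library, 0.03 for *Mvd*, 0.03 for *Abcg1* on log2(FPKM + 1), 0.03 for *Mvd*, 0.03 for *Abcg1* on log2(FPKM + 0.1), 0.01 for *Tm7sf2*, 0.07 for *Abcg1*, -0.08 for *Nr1h3*, 0.06 for *Scd1*, 0.03 for *Acaca* in set 1 alone and 0.01 for *Mvd*, -0.08 for *Fdft1* in set 2 alone. Medians moved by more than the spread between the sets for the SREBP regulators and *Stard4* (0.051 and 0.054 in the limma fits), for the LXR and efflux genes (-0.04 with DESeq2's size factors, 0.03 and 0.032 in the limma fits, -0.08 and -0.103 in set 1 and set 2 alone) and for the fatty acid genes (0.028 in set 1 alone). With each library left out in turn, medians were -0.396 to 0.092 for the sterol synthesis enzymes, -0.155 to 0.144 for the regulators, -0.271 to 0.285 for the LXR and efflux genes and -0.420 to 0.315 for the fatty acid genes, and the difference of medians was -0.602 to 0.416. Such fits lack a set term and take up the gap between sets, and the log2 fold change of 25 of the 34 genes changed sign in at least 1 of them. It ran from -0.34 to 0.15 for *Mvk*, from -0.06 to 0.45 for *Pmvk*, from -0.18 to 0.18 for *Mvd*, from -1.01 to 0.06 for *Idi1*, from -0.90 to 0.17 for *Fdps*, from -0.26 to 0.52 for *Fdft1*, from -0.49 to 0.00 for *Cyp51*, from -0.30 to 0.04 for *Tm7sf2*, from -0.88 to 0.41 for *Msmo1*, from -0.47 to 0.56 for *Nsdhl*, from -0.47 to 1.15 for *Ebp*, from -0.25 to 0.02 for *Sc5d*, from -0.39 to 0.17 for *Dhcr7*, from -0.25 to 0.21 for *Srebf1*, from -0.25 to 0.44 for *Scap*, from -0.35 to 0.00 for *Insig1*, from -0.02 to 0.32 for *Insig2*, from -1.11 to 0.28 for *Abca1*, from -0.03 to 0.03 for *Abcg1*, from -0.27 to 0.41 for *Nr1h2*, from -0.32 to 1.23 for *Nr1h3*, from -0.64 to 0.48 for *Fasn*, from -2.69 to 1.64 for *Scd1*, from -0.42 to 0.32 for *Acaca* and from -0.52 to 0.25 for *Elovl6*. In every library 32 of the 34 genes had at least 400 estimated counts.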
